A study of Mus musculus with 9 samples.

Results

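The genes examined here encode the voltage-gated calcium channels (the pore genes Cacna1a to Cacna1s and the accessory alpha2delta, beta and gamma subunits), the voltage-gated sodium channels (Scn) and the acid-sensing ion channels (Asic). Members were all protein-coding genes of the GENCODE vM21 annotation of the mouse genome (mm10) whose symbols begin with Cacna, Cacnb or Cacng, or with Scn or Asic and a digit. This gave 45 genes of 21938. Differentially methylated regions (DMRs) from the authors' deposited table were assigned to a member when they overlapped its body or the 1000 bp before its start, which gave 61 DMRs of 12949.

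The DMRs came from methylated DNA immunoprecipitation sequencing (meDIP), in which an antibody against methylated cytosine pulls down DNA fragments, so that more reads are counted where more cytosines are methylated and where CpG sites are many. Hypothalamic DNA of C57/Bl6 male pups, collected at P6 (postnatal day 6), was compared between 3 control libraries and 3 libraries after modified maternal separation (MMS), a daily separation from the dam with repeated handling, from P4 to P6. Control and MMS pups were littermates, from litters that had been reduced to males. Each library was a pool of several animals, so the spread between single animals was not measured. There was also 1 control input, 1 MMS input and 1 IgG library, whose labels name the methylcytosine antibody too. The deposited table gives the log2 mean of normalised reads for each group and no value per library, and it lists a region because the authors' own comparison called it. The authors' own statistics for each region were not used, and the group means alone give no SD, interval or test between the groups. Every difference below is the difference of the authors' means, on the log2 scale, as MMS minus control. The group headings of the table are untreated and treated, taken here to be control and MMS. Methylation values hold no expression markers, so the labelled tissue could not be checked.

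Voltage-gated calcium and sodium channels open when the membrane depolarises. In each, 1 large protein forms the pore, with 4 repeats of 6 membrane-spanning segments, and smaller subunits set its trafficking and gating. Sodium channels carry the upstroke of the action potential, while calcium channels couple electrical activity to transmitter and hormone release, firing pattern and gene transcription. Acid-sensing channels are sodium-permeable channels opened by extracellular protons. In hypothalamic neurons these currents shape firing and neuropeptide release.

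In all, 20 of the 45 genes (44.4%) held at least 1 DMR, where 19.3% of all protein-coding genes did. Of the 61 DMRs, 38 were higher in MMS (62.3%) and 23 in control, against 62.6% higher in MMS over all listed DMRs, so the share of the channel DMRs was near that of the whole table. All 61 lay inside gene bodies and 0 reached the 1000 bp upstream. A DMR touched a coding exon in 13 cases, of which 7 were higher in MMS and 6 in control, and the other 48 were intronic. In these 13 the coding part was 2.4 to 67.4% of the DMR's width. No share over all listed DMRs is given beside the upstream, exon and intron counts. They are therefore not read as particular to these genes. The lowest control mean in the table is -0.17, which stands for 0.889 normalised reads, and a difference against it depends on where that value was set and is no measure of a fold change. A DMR higher in MMS is called a gain below and a DMR higher in control a loss.

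The reference sequences (GRCm38.p6, plus strand, 5′ to 3′, CpG in capitals) of the DMRs with the largest difference in each direction, of the most CpG-dense DMR and of 2 that cover coding exons are shown here, the last 2 as the central 300 bases, because the group differences described below refer to them. The largest gain in MMS and the largest loss lay in the same intron of Cacna1c, at chr6:118808649-118808818 and chr6:118890061-118890337. The densest was at chr9:119789846-119790035 in a coding exon of Scn11a, with 7 CpG in 190 bp. The windows over coding exons are chr15:80375183-80375482 in Cacna1i and chr11:106348314-106348613 in Scn4a.
Cacna1c gain: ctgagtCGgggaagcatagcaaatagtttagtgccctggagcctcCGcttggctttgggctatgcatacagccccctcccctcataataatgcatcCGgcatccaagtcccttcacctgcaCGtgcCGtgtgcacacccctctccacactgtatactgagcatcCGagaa
Cacna1c loss: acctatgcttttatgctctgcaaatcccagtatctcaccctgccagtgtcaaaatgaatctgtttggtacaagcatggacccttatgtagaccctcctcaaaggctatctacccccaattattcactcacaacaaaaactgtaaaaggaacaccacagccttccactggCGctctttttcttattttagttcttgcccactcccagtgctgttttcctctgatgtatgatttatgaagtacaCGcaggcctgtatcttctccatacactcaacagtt
Scn11a: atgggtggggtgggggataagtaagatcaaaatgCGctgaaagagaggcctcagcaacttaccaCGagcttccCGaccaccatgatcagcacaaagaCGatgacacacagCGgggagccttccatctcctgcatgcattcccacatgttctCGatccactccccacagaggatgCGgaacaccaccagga
Cacna1i: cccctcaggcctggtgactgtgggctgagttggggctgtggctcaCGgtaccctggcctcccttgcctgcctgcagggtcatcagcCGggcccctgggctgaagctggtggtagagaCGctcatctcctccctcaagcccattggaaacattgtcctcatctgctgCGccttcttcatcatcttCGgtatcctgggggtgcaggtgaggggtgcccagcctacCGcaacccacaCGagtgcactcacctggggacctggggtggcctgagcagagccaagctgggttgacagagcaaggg
Scn4a: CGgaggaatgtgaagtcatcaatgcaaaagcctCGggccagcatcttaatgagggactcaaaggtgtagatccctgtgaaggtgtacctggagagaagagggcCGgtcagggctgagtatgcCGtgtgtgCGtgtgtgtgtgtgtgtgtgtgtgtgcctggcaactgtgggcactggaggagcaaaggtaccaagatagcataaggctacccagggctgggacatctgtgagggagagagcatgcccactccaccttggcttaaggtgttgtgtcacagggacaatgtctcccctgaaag

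**Figure D1:**
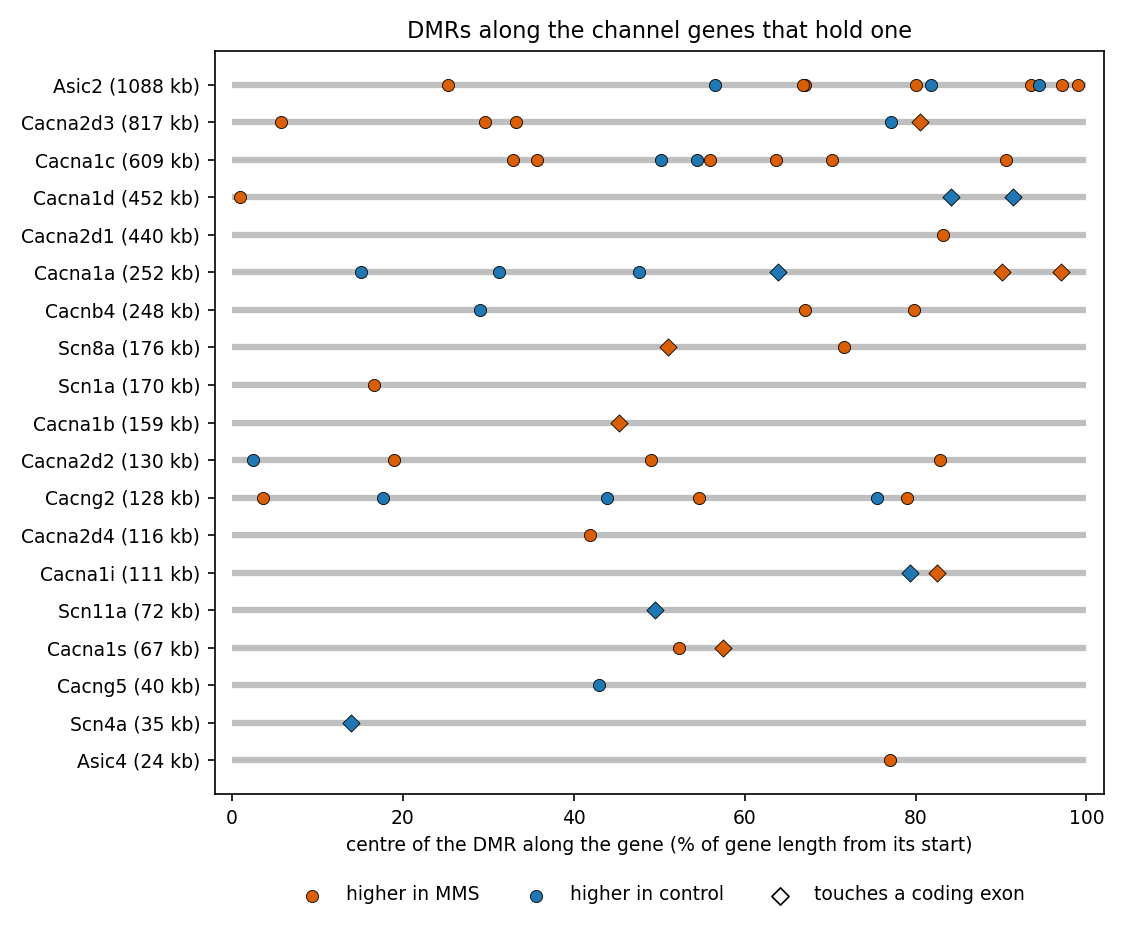
Centre of 59 of the 61 DMRs along 19 of the 20 genes that held one, as percent of the gene's length from its start, with the gene's length in kb beside its symbol; orange points were higher in MMS, blue points higher in control, and diamonds touched a coding exon. Cacna1a carried its 4 control-higher DMRs before its 2 MMS-higher DMRs, and Cacng2 carried 3 of each along its length.

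**Figure D2:**
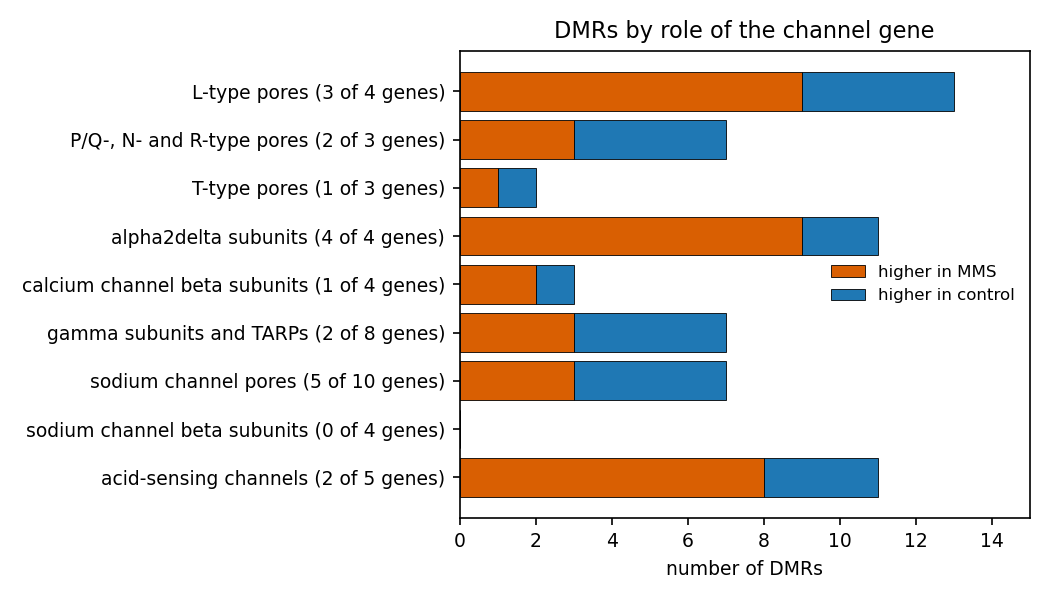
Number of DMRs (x axis) in each role group of the channel genes, coloured by the group with the higher mean; the labels give the genes with a DMR of all genes in the group. L-type pores held the most DMRs with 13, all 4 alpha2delta genes held at least 1, and the sodium channel beta subunits held 0.

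The L-type pore genes held 13 DMRs in 3 of 4 genes, 9 higher in MMS and 4 higher in control. Cacna1c, which encodes the main L-type channel of brain and heart, carried 8, of which 6 were higher in MMS. Its largest gain was the 170-bp DMR printed above, where the mean was -0.17 in control and 4.51 in MMS, a difference of 4.68 and the largest listed among the 61. Among the DMRs with control at its lowest value, such an order reflects the MMS mean alone. Where control was above it, the largest gain was 4.19 among the 61, in Cacnb4, and 2.76 in Cacna1c. Its largest loss, a 277-bp DMR with 2 CpG, went from 4.77 in control to 2.13 in MMS, a difference of -2.64. Both lay in intron 3 of the principal transcript, 272276 bp long, which held 6 of the 8 DMRs of the gene. The other MMS-higher DMRs of Cacna1c differed by 2.45 to 3.97 and the other control-higher DMR by -1.27. Of the genes over 300 kb, 28 of 567 (4.94%) held at least as many DMRs as Cacna1c.

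Cacna1d encodes an L-type channel that opens at less depolarised voltages and supports pacemaking. It carried 3 DMRs. Toward its end, a 2017-bp DMR with 48 CpG at chr14:30077873-30079889 that covers coding exon 32 of 47 had a mean of 5.79 in control and 4.77 in MMS (-1.02), and a 782-bp DMR at chr14:30111171-30111952 that touches exon 20 had 5.45 and 3.96 (-1.49). The third, chr14:30487092-30487266, lay 4276 bp from the gene start in intron 1, inside the overlapping gene Dcp1a as well, and went from -0.17 in control to 3.96 in MMS (4.13). In Cacna1d the DMRs that touch coding exons were thus both lower in MMS, though only 66 bp of the first and 25 bp of the second were coding. Cacna1s, whose channel is the voltage sensor of skeletal muscle contraction, carried 2 DMRs separated by 2752 bp and both higher in MMS. The first, at chr1:136087690-136088047 in intron 14, had means of 0.77 and 3.53 (2.76), and the second, at chr1:136090800-136091767, which touches coding exon 17 of 44, had -0.17 and 4.26 (4.43). Cacna1f, the retinal L-type channel on the X chromosome, held none.

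Of the P/Q-, N- and R-type genes, whose channels trigger transmitter release at nerve terminals, 2 of 3 held a DMR. Cacna1a, the P/Q-type pore, carried 6 in 252 kb. The 4 nearest its start, at 15.2, 31.2, 47.6 and 63.9% of its length, were higher in control and differed by -1.06 to -2.21. The largest of these, at chr8:84466719-84467364, lay in intron 3 and went from 4.50 to 2.29 (-2.21), and the last, at chr8:84548792-84549933 over coding exons 13 and 14 of 47, went from 5.77 to 4.71 (-1.06). The remaining 2, at 90.1 and 97.1%, were higher in MMS. The change of direction along the gene was noticed in the data and was not tested.

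The MMS-higher DMRs of Cacna1a both reached coding sequence. At chr8:84614568-84616013, 1446 bp with 34 CpG, the mean was 3.65 in control and 5.49 in MMS (1.84), and the antisense gene Gm16183 overlaps it. At chr8:84632426-84633225, where 19 bp of exon 41 were included, it was -0.17 and 3.63 (3.80). The first of these regions covers a known pair of alternative exons that code for part of the EF-hand region behind the pore and of which a transcript uses 1. Looking for such pairs was decided after the values had been seen. In the annotation both exons were 97 bp long and 782 bp apart, and they shared 60 of 97 bases (61.9%). The first was coding in Cacna1a-201, the principal transcript, and the second was annotated in a single noncoding transcript. Their sequences on the plus strand, which is the gene's own strand, are chr8:84614695-84614791 and chr8:84615574-84615670, with 5 and 4 CpG, shown for comparison with each other.
Cacna1a first exon of the pair: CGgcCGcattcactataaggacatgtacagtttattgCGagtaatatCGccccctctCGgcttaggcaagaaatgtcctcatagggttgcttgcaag
Cacna1a second exon of the pair: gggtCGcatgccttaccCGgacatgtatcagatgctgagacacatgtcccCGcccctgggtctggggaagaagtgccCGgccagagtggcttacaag

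Cacna1b, the N-type pore, carried a single DMR of 1441 bp at chr2:24690346-24691786 over coding exon 16 of 46, with means of 3.53 in control and 5.33 in MMS (1.80). Cacna1e, the R-type pore, held none in 494 kb. Of the genes of 100 to 300 kb, 15 of 1925 (0.779%) held at least as many DMRs as Cacna1a.

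Among the T-type genes, whose channels open near rest and support rebound bursts, only Cacna1i held DMRs, and Cacna1g and Cacna1h held none. The 2 DMRs of Cacna1i were 2067 bp apart and opposite in direction. The first, at chr15:80375016-80375649, 634 bp over coding exons 22 and 23 of 37 (its centre is printed above), had a mean of 5.04 in control and 3.64 in MMS (-1.40). The second, at chr15:80377717-80379986, 2270 bp over exons 25 and 26 with 35 CpG, had 5.50 and 6.46 (0.96). Both groups were well above the lowest value in both DMRs, and the lower MMS mean and the higher MMS mean stood within the same 5 exons.

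All 4 alpha2delta genes held a DMR, with 11 in all, 9 higher in MMS and 2 in control. Alpha2delta proteins carry calcium channels to the surface and to nerve terminals, and those of Cacna2d1 and Cacna2d2 bind gabapentin. Cacna2d1 held 1 DMR at chr5:16300720-16300965 in intron 11, with means of -0.17 in control and 3.76 in MMS (3.93). Cacna2d4, best known from photoreceptors, also held 1, at chr6:119284915-119285222, with -0.17 and 3.21 (3.38), of which 79.9% was repeat sequence. Both of these genes were therefore at the lowest control value. Cacna2d2 held 4 in 130 kb. Its control-higher DMR, chr9:107402503-107403271, was the first, 3275 bp from the gene start in intron 1, and went from 5.05 to 2.86 (-2.19). The next one downstream, chr9:107424057-107424300, 20785 bp away in the same intron, went from -0.17 to 4.11 (4.28), the largest difference in the gene. The antisense gene Gm17141 overlaps it. The other 2 were also higher in MMS, and the 1 with control above its lowest value differed by 2.05. Neighbouring DMRs of this intron were thus opposite in direction. Cacna2d3 held 5 in 817 kb, 4 of them higher in MMS. The largest gain, 3.44, was at the DMR chr14:29063572-29063917, which touches coding exon 20 of 38, with means of -0.17 and 3.27. Where control was above its lowest value, the largest gain was 3.27, from 0.64 to 3.91 at chr14:29449829-29450852. The single loss, chr14:29091146-29091853, 27228 bp from the DMR at exon 20, had 5.00 and 2.61 (-2.39). The alpha2delta genes were long, 285 kb at the median, and their density of 0.732 DMRs per 100 kb was below the 0.834 of all channel members and above the 0.605 of all protein-coding genes.

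The calcium channel beta subunits bind the pore protein inside the cell and raise its surface level. Of these, Cacnb4, the gene mutated in the lethargic mouse, held 3 DMRs, all in intron 2, and Cacnb1, Cacnb2 and Cacnb3 held none. The largest gain in Cacnb4, over 850 bp with 22 CpG at chr2:52509795-52510644, was from 0.59 in control to 4.78 in MMS (4.19), and the single loss, at chr2:52604401-52605066, was from 5.76 to 4.18 (-1.58). Cacnb2 is longer than Cacnb4 at 385 kb.

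The gamma family includes the TARPs, which bring AMPA-type glutamate receptors to the synapse. Cacng2, which encodes the TARP stargazin, held 6 DMRs in 128 kb, the highest density of the members with 4.68 per 100 kb. They were all in intron 1, 105284 bp long, with 3 higher in MMS and 3 in control. Of genes of 100 to 300 kb, 15 of 1925 (0.779%) held as many or more. Its largest gain, at chr15:78049695-78050224, went from -0.17 in control to 3.30 in MMS (3.47) and its largest loss, at chr15:78063395-78063944, from 5.22 to 3.18 (-2.04). These were next to each other, separated by 13170 bp. A closer pair, 3672 bp apart, also went opposite ways, with 1.59 in control and 4.42 in MMS (2.83) at the first and 6.12 and 5.23 (-0.89) at the second. Cacng5, another TARP, held 1 DMR at chr11:107897567-107897749 in intron 1, from 5.40 to 4.13 (-1.27). Cacng1, Cacng3, Cacng4, Cacng6, Cacng7 and Cacng8 held none.

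The sodium channel pore genes held 7 DMRs in 5 of 10 genes, 3 higher in MMS and 4 in control. The DMRs of Scn8a and Scn1a were higher in MMS and those of Scn4a and Scn11a higher in control. Scn8a encodes the channel of the axon initial segment and nodes of Ranvier. Its 433-bp DMR at chr15:100959541-100959973, with 15 CpG, had a mean of -0.17 in control and 4.48 in MMS (4.65), the second largest difference of the 61. The other DMR of Scn8a, at chr15:100995094-100996721 in intron 12, had 4.86 and 5.94 (1.08).

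The 433-bp DMR of Scn8a also lies at a pair of alternative exons, those that code for part of the voltage sensor of the first repeat and are known as neonatal and adult versions. This was again looked up after the values had been seen. The exons were 92 bp each, 171 bp apart, and identical at 73 of 92 bases (79.3%), and no annotated transcript held both. The downstream exon, at 100959603 to 100959694 on chromosome 15, lay wholly inside the DMR and was used by 3 coding transcripts of the basic set, while the upstream exon, also used by 3, ended 109 bp before the DMR. The principal transcript, Scn8a-213, uses the upstream exon, so the DMR falls in its intron 6.

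Scn1a encodes the channel of fast-spiking interneurons. Its DMR at chr2:66412205-66412805, 601 bp, went from -0.17 in control to 3.53 in MMS (3.70) and was the only 1 of the 61 with 0 CpG in the reference, although its GC content, 59.4%, was the highest. Over all listed DMRs, 310 of 12949 had 0 CpG. It lay before the start of the principal transcript and inside the noncoding gene Gm13630. The central 300 bases, chr2:66412356-66412655, are printed because they hold a short unit repeated many times and no capital letter, and the DMR was singled out after its values were seen.
Scn1a: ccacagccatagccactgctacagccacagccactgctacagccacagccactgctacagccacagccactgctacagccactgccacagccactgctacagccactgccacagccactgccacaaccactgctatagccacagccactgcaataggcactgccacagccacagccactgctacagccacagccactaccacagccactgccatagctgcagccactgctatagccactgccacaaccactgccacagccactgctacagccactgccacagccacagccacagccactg

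Scn4a, the skeletal muscle channel, held 1 at chr11:106348060-106348866 over coding exons 3 and 4 of 24 (its centre is printed above), from 4.59 to 2.25 (-2.34). The centre of this DMR was 926 bp from a transcript start, the closest of the 61. Scn11a, the persistent sodium channel of pain-sensing neurons, held the CpG-dense DMR printed above, in coding exon 15 of 27 over codons 747 to 789, from 4.87 to 3.50 (-1.37). Scn2a, Scn3a, Scn7a, Scn9a and Scn10a held none, nor did the beta subunit genes Scn2b, Scn3b and Scn4b, which are at most 22.4 kb long.

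Among the acid-sensing channels, Asic2, a subunit that forms mixed channels with other family members, held 10 DMRs in 1088 kb, the most of any member, 7 higher in MMS and 3 in control. Of genes over 300 kb, 10 of 567 (1.76%) held as many or more, but this class has no upper limit and was not matched to the length of Asic2. The largest gain was at chr11:81096642-81097531, with 18 CpG, from -0.17 in control to 4.41 in MMS (4.58). Up to 182 bp of this region (20.4%) aligned at 95% identity or more to 356 other places in the genome. The largest loss, 18408 bp away, was a 156-bp DMR at chr11:81078078-81078233 of 82.1% repeat sequence, inside the antisense gene Gm11417, from 4.82 to 2.73 (-2.09). Both lay in intron 1 of the principal transcript. The remaining gains in Asic2 were from 1.86 to 4.57 and the remaining losses were -1.48 and -1.89. Where control was above its lowest value, the largest gain in Asic2 was 4.13. Asic4, a family member that forms no proton-gated current by itself, held 1 DMR in 23.9 kb, at chr1:75468677-75469028 in intron 1, from -0.17 to 3.13 (3.30), and lay inside the gene model Gm37264 as well. Asic1, Asic3 and Asic5 held none.

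Of the 12 members with 2 or more DMRs, 9 held DMRs of both directions (75.0%), where 762 of 1330 protein-coding genes with 2 or more did (57.3%), but these shares rise with the number of DMRs in a gene. With 2 DMRs it was 1 of 4 members and 44.1% of all genes, with 3 to 5 it was 4 of 4 and 74.7%, and with 6 or more 4 of 4 and 93.2%. In 7 members the DMRs were only higher in MMS and in 4 only higher in control. The 4 members with the most, Asic2, Cacna1c, Cacna1a and Cacng2, held 30 of the 61. The ranks given above are those of these 4 genes, picked by their count, and were not tested. For the other members over 300 kb with a DMR, the share of genes with as many or more was larger. It was 16.8% for Cacna2d3, 36.9% for Cacna1d and 79.9% for Cacna2d1.

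The gains were of different kinds. In 22 of the 38 DMRs higher in MMS (57.9%), the control mean was at the lowest value, -0.17. Over all listed DMRs this share was 52.7%. In the other 16 the control mean was 0.59 to 5.50. Of the 23 DMRs higher in control, 0 had the MMS mean at its lowest value, where 4.6% of all listed DMRs higher in control did. The median difference was 3.49 in the DMRs higher in MMS (3.43 over all listed) and -1.40 in those higher in control (-1.73 over all listed). With DMRs at a lowest value left out, 39 DMRs remained, of which 41.0% were higher in MMS, against 45.3% of all listed under the same limit. The majority was then higher in control, with 16 gains left against 23 losses. A fall in the share higher in MMS follows by construction, as this limit took out 22 gains and 0 losses among the channel DMRs. The median gain was then 2.40, against 2.58 over all listed, so that it was below the whole list and no longer above it.

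**Figure D3:**
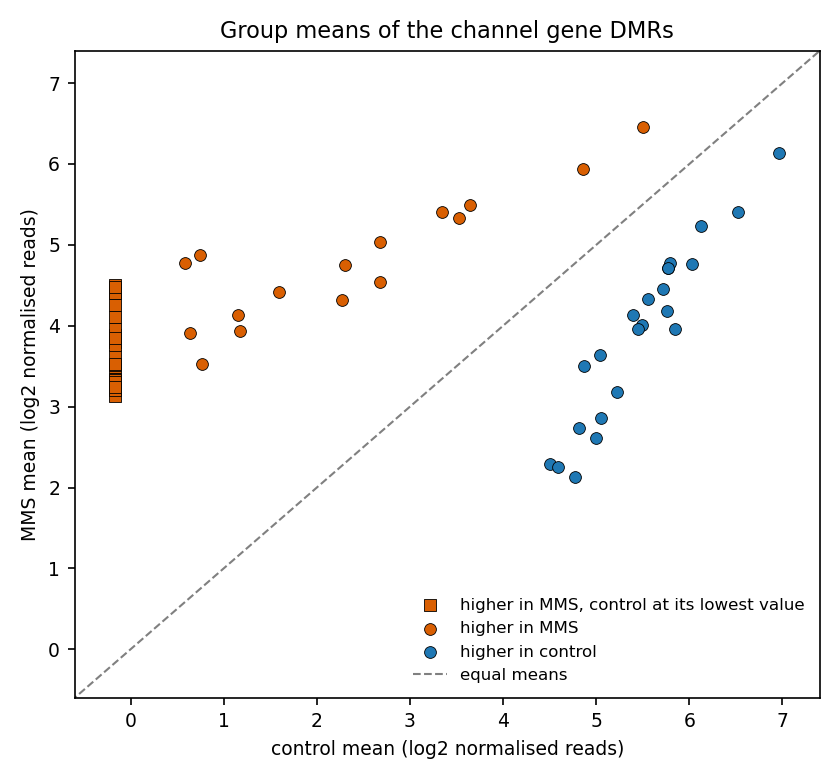
Mean in control (x axis) and in MMS (y axis) of each of the 61 DMRs, in log2 normalised reads, with squares for the 22 DMRs whose control mean was at the lowest value and a dashed line where both means are equal. The squares form a column at -0.17 with MMS means from 3.13 to 4.51, while the control-higher DMRs all have a control mean of 4.50 or more.

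Gene length bears on these counts, since a longer gene has more sequence in which a DMR can fall. Under 10 kb, 0 of 1 member held a DMR (3.58% of all protein-coding genes), from 10 to 30 kb 1 of 11 (9.09%, against 13.2%), and from 30 to 100 kb 5 of 12 (41.7%, against 29.8%). From 100 to 300 kb it was 9 of 14 (64.3%, against 57.4%) and over 300 kb 5 of 7 (71.4%, against 79.9%). Within a length class the share of channel genes with a DMR was therefore above the background in 2 classes and below it in 3.

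The number of DMRs per length was higher in the members of 30 kb or more. Members held 0.834 DMRs per 100 kb of gene and all protein-coding genes 0.605. From 100 to 300 kb the density was 1.22 against 0.654, with 16 of the 26 DMRs in Cacna1a, Cacna2d2 and Cacng2, and over 300 kb it was 0.63 against 0.438, with 18 of 27 in Asic2 and Cacna1c. Potassium channel genes held 35 DMRs in 24 of 81 genes (0.477 per 100 kb) and glutamate receptor genes 44 in 14 of 27 (0.468 per 100 kb). The share higher in MMS was 71.4% for potassium channels and 61.4% for glutamate receptors. The differences between these families were not tested.

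**Figure D4:**
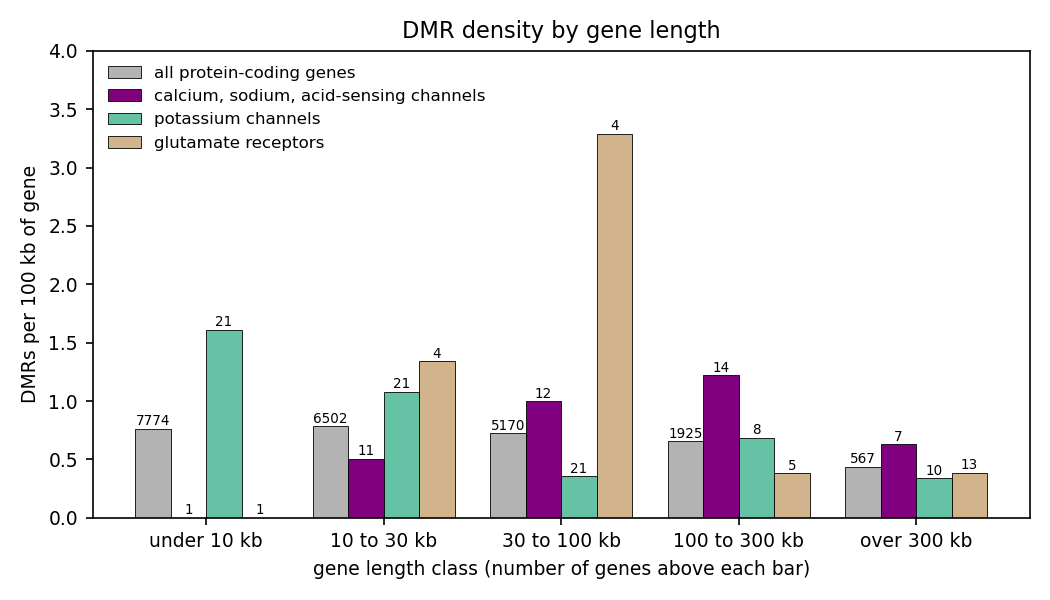
DMRs per 100 kb of gene (y axis) in 5 gene length classes (x axis) for all protein-coding genes, the channel members, potassium channels and glutamate receptors, with the number of genes above each bar. Members were at 1.22 from 100 to 300 kb and 0.63 over 300 kb, where all genes were at 0.654 and 0.438, and bars of few genes such as the 4 glutamate receptor genes at 3.29 rest on few DMRs.

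Genes that work with these channels were counted from a list. Of 21 genes for calcium release from stores and calcium clearance (ryanodine and inositol trisphosphate receptors, Stim and Orai, calcium pumps and exchangers), 13 held a DMR, with 14 DMRs higher in MMS and 8 in control. Atp2b2, a plasma membrane calcium pump, held 5, of which 3 were higher in MMS. Of 17 proteins that bind calcium channels, among them calmodulin and the Rim proteins of the release site, 5 genes held 1 DMR each, 4 of them higher in MMS. Of 7 sodium channel partners, 4 held 11 DMRs, 8 higher in MMS and 3 in control. Nedd4l, a ubiquitin ligase that removes sodium channels from the membrane, held 5, of which 4 were higher in MMS. Ank3, the ankyrin that anchors sodium channels at the axon initial segment, held 4, all higher in MMS, and Fgf12 and Sptbn4 held 1 each, higher in control. Of 7 genes of the sodium leak channel and epithelial sodium channels, 2 held 4 DMRs, all higher in MMS. Over the 52 partners, 24 held a DMR (46.2%, where 19.3% of all protein-coding genes did), and 30 of 42 DMRs were higher in MMS (71.4%, against 62.1% of the DMRs in all protein-coding genes). Their density of 0.446 per 100 kb was below the 0.605 of all protein-coding genes.

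The channel DMRs were spread over 9 chromosomes. The centre was in the first 50% of the gene's length in 24 of 61 (39.3%), where the same held for 50.6% of DMRs over all protein-coding genes. Without Asic2, an alternative chosen after seeing the data, it was 23 of 51 (45.1%), nearer to the share over all genes. In 15 cases the DMR lay in the first intron of the principal transcript. The centre was within 1 kb of a protein-coding transcript start in 1 case and within 5 kb in 7. Another listed DMR lay within 5 kb of 8 of the 61. The counts by first intron, transcript start and nearest DMR have no share over all listed DMRs beside them. With the upstream window set to 5000 bp, 4 DMRs were added, among them 1 before Scn3b, 4013 bp from the gene start, which held 4 CpG in 797 bp and went from -0.17 in control to 3.52 in MMS (3.69).

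In width, CpG and GC content the channel DMRs were close to the whole list. The median width was 634 bp (544 over all listed), the median CpG content 1.48 per 100 bp (1.32) and the median GC content 49.9% (47.4%). The median CpG content was 1.32 per 100 bp in DMRs higher in MMS and 1.82 in those higher in control, where all listed DMRs had 1.26 and 1.43. Only 3 of the 61, in Scn11a, Cacna1c and Scn8a, held 3 or more CpG per 100 bp (4.92%, against 4.73% of all listed). Repeat sequence was less common among the channel DMRs, a difference that was not tested, with over 50% of the DMR soft-masked in 3 (4.92%) against 17.4% of all listed and 11.1% of those in protein-coding genes. For 58 of the 61 no alignment of at least 100 bp and 95% identity was found elsewhere in the genome, and for the other 3, in Asic2, Cacna1c and Cacna1s, the longest covered under 50% of the DMR.

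**Figure D5:**
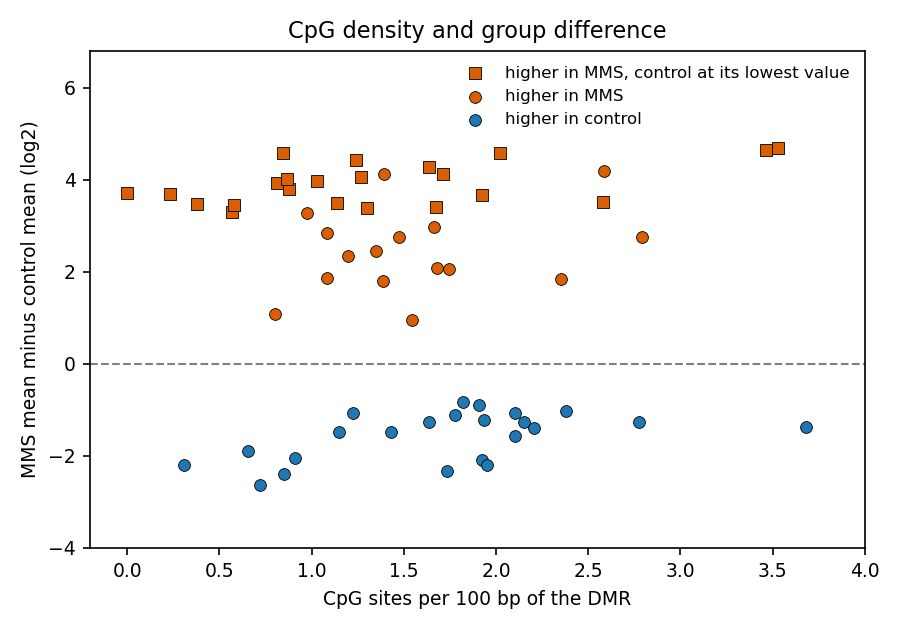
CpG sites per 100 bp of each DMR (x axis) and difference between the group means (y axis, MMS minus control, log2), with squares where the control mean was at its lowest value. Control-higher DMRs reach down to -2.64, and the densest DMRs, at 3.46 to 3.68 CpG per 100 bp, include both directions.

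Short motifs were counted in the 300 bp around the centre of each DMR, on both strands, as a search added after the values were known. For DMRs narrower than 300 bp this window includes sequence outside the DMR. The cAMP response element TGACGTCA was in 0 of the 61 (0.286% of all listed DMRs), the E-box CACGTG in 4 (6.56%, against 5.58%) and the GC box GGGCGG in 3 (4.92%, against 5.44%). The 4 with an E-box were in Cacna1a, Cacna1c, Cacna1s and Cacng2, and the 1 in Cacna1c is the largest gain, printed above. Over the whole length of the DMR, a run of at least 20 bp of alternating CA or TG was in 5 (8.2%, against 7.51%). These shares were near those of all listed DMRs.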

How the data were processed

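Methylated DNA immunoprecipitation was sequenced from hypothalamic DNA in 3 control and 3 MMS pools, with 1 control input, 1 MMS input and 1 IgG library that were not analysed by themselves. Torrent Suite was used by the authors for alignment (mm10) and MACS2 (version 2.1 in the submitters' processing notes) for broad peaks over the inputs. According to the paper, each group was also normalised by a pooled input of its own, with an IgG control used for subtraction. How this entered the group means was not examined. The authors compared the groups with DiffBind and DESeq2 and annotated regions with HOMER 4.8. The authors' deposited table holds 12949 regions with log2 means of normalised reads over all libraries and over each group. It also holds the authors' own fold change, p-value and false discovery rate for each region, which were not used. It has 0 columns of values per library, so no test was run here, and the depth per library behind single values is not given, so that the precision of the group means was not assessed.

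Regions were assigned to GENCODE vM21 genes by an overlap of at least 1 bp with the body or the 1000 bp upstream, and the overlap step was tested on simulated intervals. A group mean within 0.5 (log2) of the lowest mean of its group in the table was counted as at its lowest value. Exons and introns were numbered on 1 principal transcript per gene. Sequence, CpG and soft-masked shares came from the RefSeq copy of GRCm38.p6, and alignments elsewhere from BLAST 2.17.0 (at least 100 bp, 95% identity). Python 3.11.15, pandas 2.3.3, numpy 2.4.6, scipy 1.17.1, pysam 0.24.0 and matplotlib 3.10.9 were used. Comparison families were potassium channels (Kcn genes) and glutamate receptors (Gria, Grid, Grik, Grin and Grm).

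Members were named with their number of DMRs, except for 2 genes whose own results are not reported here and which stay in the counts. Group means were given for each DMR of members with 1 or 2, and in the others for the largest difference in each direction and for DMRs that touch an exon or hold at least 3 CpG per 100 bp. Members, role groups and partner lists were chosen with earlier results of these data known.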

Additional observations from a re-analysis of the deposited data

How the results depend on the processing

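The 6 summary values (genes with a DMR, number of DMRs, share higher in MMS, share with control at its lowest value and the median difference in each direction) were recomputed under 14 other settings, of which 2 (without Asic2, without Cacna1c) were chosen after seeing the data. The 2 other limits for the lowest value were applied to that share alone, and leaving out overlapping genes to the counts and the share higher in MMS. Of 70 values, 63 stayed within 1.5 times the count or within the 95% interval (Wilson for shares, order statistics for medians, over DMRs, which are not replicates), 6 moved and 1 reversed. All 6 values were identical with no upstream window, RefSeq genes, or the DMR's centre or at least 50% of it in the gene. Those settings kept the same 61 DMRs, so their agreement adds nothing to the main values. With a minimum log2 difference of 2, 40 DMRs remained, of which 82.5% were higher in MMS (80.6% of all listed), and the median of those higher in control was -2.21. By construction this removes the smaller losses. With DMRs at a lowest value left out, 39 remained, of which 41.03% were higher in MMS. The majority thus turned to control (in all listed DMRs too, with 45.3% higher in MMS). A fall in this share follows by construction, since only gains were taken out among the members. The median of those higher in MMS was 2.40. With members that overlap another protein-coding gene left out (Asic2, Cacna1c, Cacna1d, Cacna1h, Cacna2d3 and Cacna2d4), 34 DMRs remained in 15 genes, by construction, as those genes held the others. RefSeq genes gave the same 45 members, 20 genes and 61 DMRs.

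No paired analysis was possible because the table holds no values per library, and for the same reason no replicate was left out in turn. A stricter FDR was not run, since that column was not used. The share with control at its lowest value has no meaning once those DMRs are left out and was not computed there. Only 3 pooled libraries per group, a list of regions without the regions that were tested and not called, and means without spread limit every statement above.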
